A study of Mus musculus with 6 samples.

Results

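The genes described here are 36 genes of DNA replication and mitosis, followed in the mammary glands of luteinizing hormone (LH) transgenic and wild type mice. They were taken from a list of names that was drawn up with earlier results of these data known. The rule itself uses names and no measured value, and a probe set was used where the array annotation named that gene and no other. Of the 36, 16 were listed as S phase genes and the remaining 20 as genes of G2 and mitosis. An unshared probe set existed for 33 of them, among 8251 genes on the array with such a probe set. After a filter on dim probe sets 31 of the 33 were tested, 14 of S phase and 17 of G2 and mitosis, among 5731 genes tested.

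The animals were virgin F1 CF-1/FVB mice aged 16 weeks, and the tissue was the thoracic mammary gland. The wild type group was 9 mice in 3 pools and the LH transgenic group another 9 mice in 3 pools, with the RNA of 3 glands in each pool and 1 Affymetrix array per pool. The transgenic mice overexpress LH. Which promoter drives the transgene is not given in the sources used here. The labels name no sorting of cells. The p-values below measure the spread between pools of 3 mice, except where the arrays were rescaled to control RNA, as stated there.

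A dividing cell copies its DNA in S phase and separates the copies in mitosis, with the gap phase G2 between them. The Mcm proteins form the ring-shaped helicase that opens the double helix, Pcna is the sliding clamp of the DNA polymerases, and Rrm1 and Rrm2 make the deoxynucleotides. Cdk1 with cyclins A and B drives the entry into mitosis, Plk1 and the Aurora kinases act on spindle and chromosomes, and Foxm1 is a transcription factor that many of these genes depend on. Genes of S phase are classically driven by E2F factors, and genes of G2 and mitosis through CCAAT boxes, bound by NF-Y, and the cell cycle genes homology region (CHR), bound by the MuvB complexes. In the mammary gland, division of the ductal and alveolar epithelium follows the ovarian hormones, which LH acts upstream of.

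The promoters of the members are shown because they differ between the phases of the cycle in a way that the choice of genes did not use. RefSeq sequence of GRCm38.p6 was found for 31 members, 15 of S phase with 18 promoters and 16 of G2 and mitosis with 16 promoters, and there was no entry for Foxm1, Aurkb, Stmn1, Mcm4 and Ccna2. The 250 bases before each start site were searched on both strands for the CHR letters TTTGAA and the variant TTCGAA, for CCAAT, and for the E2F letters TTCCCGCC, TTTCCCGC and TTTGGCGC. These motifs can overlap, as the E2F and CCAAT letters of Prim1 do. The 150 bases before the start are printed for 6 genes of G2 and mitosis, of which Kif11 is the one not called in the test below, with the motifs in capitals on whichever strand they were found: Ccnb2 at chr9:70421555-70421704 on the minus strand, Mki67 at chr7:135716380-135716529 on the minus strand, Cdk1 at chr10:69352913-69353062 on the minus strand, Cks2 at chr13:51645082-51645231 on the plus strand, Plk1 at chr7:122159285-122159434 on the plus strand and Kif11 at chr19:37376232-37376381 on the plus strand.
Ccnb2: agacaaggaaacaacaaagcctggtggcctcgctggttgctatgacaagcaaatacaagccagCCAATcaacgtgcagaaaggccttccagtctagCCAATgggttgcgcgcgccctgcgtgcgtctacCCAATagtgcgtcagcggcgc
Mki67: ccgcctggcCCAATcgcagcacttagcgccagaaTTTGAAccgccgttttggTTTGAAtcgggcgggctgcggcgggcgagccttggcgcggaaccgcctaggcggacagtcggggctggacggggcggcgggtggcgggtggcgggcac
Cdk1: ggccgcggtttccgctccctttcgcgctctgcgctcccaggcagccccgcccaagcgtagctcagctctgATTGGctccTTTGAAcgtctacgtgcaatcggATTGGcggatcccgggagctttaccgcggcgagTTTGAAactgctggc
Cks2: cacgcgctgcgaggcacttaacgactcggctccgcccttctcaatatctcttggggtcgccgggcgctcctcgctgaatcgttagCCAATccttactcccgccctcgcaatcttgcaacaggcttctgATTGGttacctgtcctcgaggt
Plk1: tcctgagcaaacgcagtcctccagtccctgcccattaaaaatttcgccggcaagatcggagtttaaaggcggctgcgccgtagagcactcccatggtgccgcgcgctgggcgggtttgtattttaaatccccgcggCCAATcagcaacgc
Kif11: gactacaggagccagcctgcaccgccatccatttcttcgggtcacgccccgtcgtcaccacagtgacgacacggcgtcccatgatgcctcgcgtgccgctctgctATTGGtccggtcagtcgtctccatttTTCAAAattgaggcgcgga
For comparison, the same stretch is printed for 4 genes of S phase, none of them called: Rrm1 at chr7:102441545-102441694 on the plus strand, Mcm5 at chr8:75109359-75109508 on the plus strand, Pola1 at chrX:93632156-93632305 on the minus strand and Pcna at chr2:132253181-132253330 on the minus strand.
Rrm1: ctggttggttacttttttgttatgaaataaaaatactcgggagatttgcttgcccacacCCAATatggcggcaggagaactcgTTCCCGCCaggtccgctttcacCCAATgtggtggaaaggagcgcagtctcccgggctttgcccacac
Mcm5: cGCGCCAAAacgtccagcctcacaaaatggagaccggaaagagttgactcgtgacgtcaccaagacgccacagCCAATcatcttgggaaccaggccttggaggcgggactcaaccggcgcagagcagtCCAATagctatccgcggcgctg
Pola1: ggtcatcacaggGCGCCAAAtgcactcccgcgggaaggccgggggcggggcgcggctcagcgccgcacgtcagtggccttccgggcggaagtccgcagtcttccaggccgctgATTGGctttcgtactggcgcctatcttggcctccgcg
Pcna: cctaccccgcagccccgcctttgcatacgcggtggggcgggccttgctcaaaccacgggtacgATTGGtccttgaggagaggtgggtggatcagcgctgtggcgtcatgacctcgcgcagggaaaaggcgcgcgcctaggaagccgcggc

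CCAAT was found in 14 of 16 promoters of G2 and mitosis genes (87.5%), in 11 of 18 of S phase genes (61.1%) and in 33.8% of the 32851 promoters in the table. A CHR in either spelling was found in 7 of 16 (43.8%), 2 of 18 (11.1%) and 17.1% of all. With the 50 bases after the start included, a window chosen after seeing the data, the CHR shares were 12 of 16 (75%), 11.1% and 19.2%. An E2F motif was found in 0 of 16 promoters of G2 and mitosis genes, 7 of 18 of S phase genes (38.9%) and 2.69% of all. All 7 promoters with a CHR among the G2 and mitosis genes also held CCAAT, a pair found in 6.02% of all promoters. Mad2l1 and Birc5 of G2 and mitosis held none of the motifs in the window, nor did Ccne1, Tk1, Tyms and every promoter of Lig1 of S phase. The promoters printed above all held a motif, and that of Mad2l1, which was called in the test below and held none, was not printed. These matches describe letters and were not tested as sites.

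Of the 31 tested members, 8 were higher in the LH transgenic pools at an adjusted p under 0.05 and 0 were lower. The background is that 9.93% of all tested genes were called higher and 11.6% lower. With the arrays scaled to the bacterial control RNA added at hybridisation, none of the 8 calls held, with 0 members higher and 5 lower. The background on that scale is 140 probe sets called higher and 3859 lower, of 7453. There 1 factor per array shifts all genes together, and the SE was nearly the same for many unlike genes (0.26 for Mki67, Rrm1 and Emcn). Calls and adjusted p-values on that scale therefore do not rest on each gene's own spread between pools, and they treat an error shared by an array as if genes were independent. All 8 calls on the deposited scale fall in the set listed as G2 and mitosis (8 of 17), which also holds Ccna2, a cyclin of S phase too. Of the 14 listed S phase genes 0 were called, with 2 higher at an unadjusted limma p under 0.05. Of all tested genes 17.2% were higher at that cut, so the 2 do not stand out. On the scale of the deposited signals the median log2 difference, LH transgenic minus wild type, was 0.56 in the G2 and mitosis genes, 0.15 in the S phase genes and 0.01 over all tested genes. On that control scale the G2 and mitosis median was -0.06 and the S phase median -0.51, against -0.62 over all tested probe sets, so the signs turn on that scale and both stay above the common shift, by 0.56 and 0.11. The test was limma's moderated test on log2(signal + 80.0) with Benjamini-Hochberg adjustment over 7453 probe sets, of which 21.3% were called in either direction. In bulk tissue a larger share of dividing cells and more of these RNAs per cell cannot be told apart.

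The regulator with the largest difference was Foxm1, the transcription factor of the mitotic program. Its signal was 2322.3, 2424.9 and 1642.8 in wild type pools 1, 2 and 3, and 4977.2, 4784.8 and 4479.2 in LH transgenic pools 1, 2 and 3. The groups lay far apart, with means of 2130 ± 425 and 4747 ± 251 (SD, n = 3), a log2 difference of 1.15 (SE 0.16) and a limma adjusted p of 0.001619. A second Foxm1 probe set was too dim to be tested, at 35.4, 44.7 and 43.5 against 213.8, 263.1 and 122.9, and its groups did not overlap either.

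Among the cyclins and the kinase they activate, Ccna2, cyclin A2 of S phase and early mitosis, read 1660.1, 1368.6 and 1448.1 in wild type and 2381.6, 2738.7 and 2901.8 in transgenic pools. The 3 transgenic pools were all above the wild type pools, with a log2 difference of 0.81 (SE 0.14, limma adjusted p 0.004208). Ccnb2, cyclin B2 of mitotic entry, read 4899.1, 3047.4 and 3671.1 against 6866.1, 6449.9 and 7391.0. Wild type pool 1 was the highest of its group and still below every transgenic pool, and the difference was 0.85 (SE 0.17, limma adjusted p 0.008258). Cdk1, the mitotic kinase itself, read 2112.8, 1430.8 and 1599.8 against 2637.5, 2394.3 and 2558.1. It had the smallest difference of the 8, at 0.56 (SE 0.16, limma adjusted p 0.03522), and on the bacterial control scale its difference was -0.11 (adjusted p 0.7236). Cks2, a small subunit that binds the cyclin-dependent kinases, read 1637.9, 1093.2 and 1230.8 against 2299.4, 1948.7 and 2111.6, again with wild type pool 1 the highest of the controls. Its difference was 0.67 (SE 0.17, limma adjusted p 0.02021). Ccnb1, the other mitotic B cyclin of the list, had no probe set of its own.

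Plk1, the Polo kinase of mitotic entry and spindle assembly, was measured by 3 probe sets and all were called. The brightest read 974.3, 732.0 and 928.7 in wild type and 1709.4, 1485.1 and 1712.8 in transgenic pools, with a log2 difference of 0.85 (SE 0.15, limma adjusted p 0.005047). The others gave 1.17 and 0.88, with limma adjusted p of 0.002571 and 0.02496, and no wild type pool reached a transgenic pool in any of the 3. The Aurora kinases, which act at spindle poles and at the centromere, were not called: the difference was 0.36 for Aurka and 0.50 for Aurkb, with limma adjusted p of 0.2296 and 0.1263. Their groups overlapped, since Aurka in LH transgenic pool 1 read 497.3 and wild type pool 2 read 528.7, and Aurkb in LH transgenic pool 1 read 1019.1 and wild type pool 1 read 1132.2.

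Of the genes of the spindle checkpoint, Mad2l1, which holds cells in metaphase until every chromosome is attached, was called. It read 1289.6, 652.2 and 1006.7 in wild type and 1883.3, 1459.7 and 2198.3 in transgenic pools, a difference of 0.89 (SE 0.24, limma adjusted p 0.02657), with the wild type pools spread widely and no overlap. Ttk, a checkpoint kinase, read 447.3, 493.1 and 409.1 against 781.3, 797.6 and 522.9. The groups did not overlap, but LH transgenic pool 3 lay close to the controls and the difference of 0.54 was not called (limma adjusted p 0.08399). Bub1 was not tested, since its brightest probe set read 169.4 to 332.9 over the 6 arrays and lay below the filter, and Bub1b had no probe set of its own. Cdc20, the activator of the anaphase-promoting complex that the checkpoint restrains, read 3389.3, 2253.6 and 3001.8 against 3331.0, 3204.4 and 4510.6. Wild type pool 1 exceeded LH transgenic pools 1 and 2, and the difference of 0.35 was not called (limma adjusted p 0.2204).

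Mki67, the Ki-67 protein that coats mitotic chromosomes and is the common marker of cycling cells, read 1589.1, 1104.2 and 1147.3 in wild type and 2932.5, 2104.8 and 2933.0 in transgenic pools. Every transgenic pool was above every wild type pool, the means were 1280 ± 268 and 2657 ± 478 (SD, n = 3), and the log2 difference was 1.01 (SE 0.19, limma adjusted p 0.005407). A second Mki67 probe set was too dim to be tested and differed far less. It read 292.6, 252.4 and 294.5 against 294.6, 345.6 and 351.3, a ratio of means of 1.18, with LH transgenic pool 1 barely above wild type pool 3. Top2a, which untangles sister chromatids, differed by 0.46 and was not called (limma adjusted p 0.2247), with 353.7 to 698.1 in wild type and 583.4 to 943.4 in transgenic pools. Kif11, the kinesin that pushes the spindle poles apart, read 601.0, 320.9 and 324.5 against 727.3, 668.8 and 727.8. The groups did not overlap, and with wild type pool 1 well above the other controls the difference of 0.71 stood just outside the threshold (limma adjusted p 0.05418). Stmn1, a destabilizer of microtubules, read 9558.1, 7721.2 and 8637.5 against 13959.6, 14822.7 and 9583.7. LH transgenic pool 3 was barely above wild type pool 1, and the difference of 0.54 was also just outside (limma adjusted p 0.0533).

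Cenpa, the histone of the centromere, was the G2 and mitosis gene nearest to 0. It read 626.2, 762.1 and 639.5 against 661.8, 697.9 and 927.8, with overlapping groups and a difference of 0.15 (limma adjusted p 0.6038). Birc5, survivin, a subunit of the same passenger complex as Aurkb, was the only one of the 17 below 0. It read 1252.6, 898.2 and 999.4 against 946.6, 858.5 and 593.6, a difference of -0.37 that was not called (limma adjusted p 0.2208). On the bacterial control scale, with the limit of its p-values given above, Birc5 was called lower, at -1.004 (limma adjusted p 0.001093). Over the 17 genes the differences ran from -0.37 to 1.15, with 16 above 0 and 11 with no overlap between groups. Of all tested genes 19.8% had transgenic pools wholly above the wild type pools and 20.8% wholly below, where 0 members were. On the bacterial control scale the signs of many turned, and 9 of all 31 members remained above 0.

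**Figure D1:**
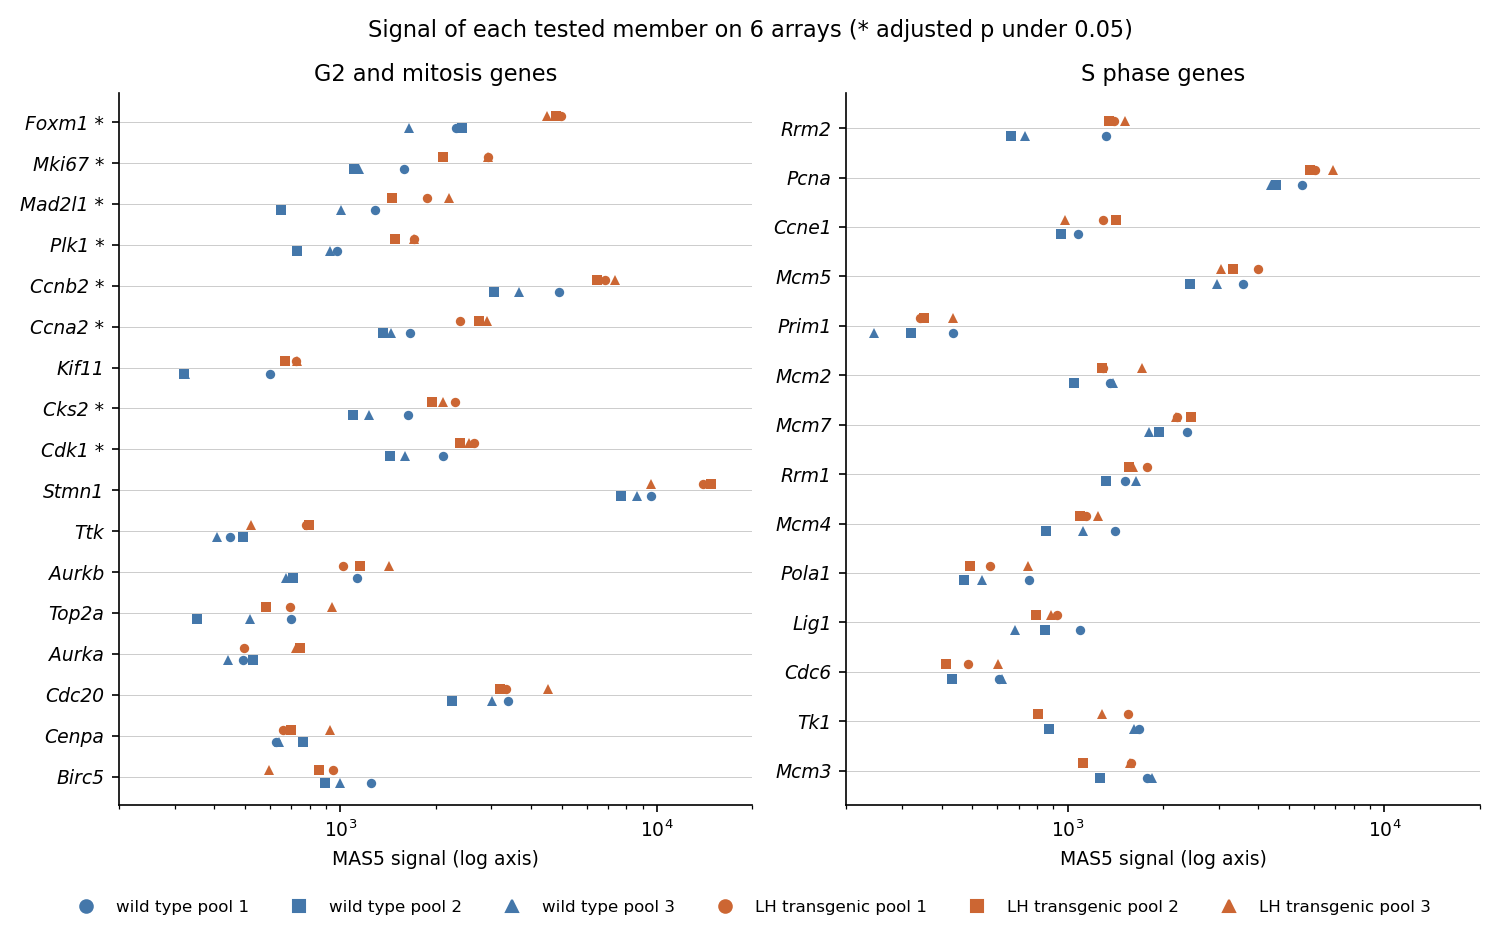
Signal (log axis) of every tested member on the 6 arrays, with G2 and mitosis genes on the left and S phase genes on the right, each ordered by its log2 difference. Points are single pools (blue, wild type; orange, LH transgenic). In the 8 genes marked with a star all orange points lie right of all blue points, while in Birc5 LH transgenic pool 3 is the lowest of all, and in the S phase panel most genes mix the colours.

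Among the S phase genes no subunit of the helicase was called. The 5 tested Mcm subunits differed by 0.16 (Mcm2), -0.18 (Mcm3), 0.06 (Mcm4), 0.21 (Mcm5) and 0.16 (Mcm7), with overlapping groups in each and limma adjusted p from 0.4085 to 0.8479. On the bacterial control scale all 5 were below 0, and Mcm3 was called lower there, at -0.84 (adjusted p 0.005197). Their 95% intervals ran from -0.62 for the low end of Mcm3 to 0.59 for the high end of Mcm5, so a rise of the size of Cdk1 lies inside the interval for Mcm5. Mcm3 had a second tested probe set with a difference of 0.26 (limma adjusted p 0.3831), of the opposite sign. Mcm6 was not tested, since its probe set read 22.2 to 67.8 over the 6 arrays.

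The clamp and the smaller ribonucleotide reductase subunit stood highest among the S phase genes. Pcna read 5500.6, 4538.0 and 4375.7 against 6024.7, 5805.3 and 6879.9. The groups did not overlap, and the difference of 0.37 (95% interval 0.07 to 0.68) was not called (limma adjusted p 0.08034). Rrm2, whose protein limits deoxynucleotide supply, read 1319.4, 662.8 and 731.5 against 1396.2, 1353.1 and 1516.1. Wild type pool 1 was close to the transgenic pools and far above the other controls, and the difference of 0.67 (95% interval 0.15 to 1.18) was not called (limma adjusted p 0.06572). Without wild type pool 1 it was 0.95 with an adjusted p of 0.008637. Its partner Rrm1 differed by 0.13, with wild type at 1322.7 to 1645.7 and transgenic pools at 1557.5 to 1775.1.

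Pola1 and Prim1, catalytic subunits of the polymerase and primase that begin each DNA strand, differed by 0.04 and 0.16. Pola1 read 757.0, 470.7 and 538.3 against 570.4, 492.4 and 749.1, and the highest pool was a wild type pool. Lig1, the ligase that joins the pieces of the lagging strand, was nearest to 0 of all members: it read 1096.4, 848.4 and 680.3 against 924.1, 794.3 and 885.9, a difference of 0.01 on the deposited scale and -0.62 on the bacterial control scale. A second Lig1 probe set was too dim to be tested and was lower in the transgenic pools with no overlap, with 124.9, 152.8 and 171.0 in wild type against 61.7, 31.8 and 20.5. Tk1, the thymidine salvage kinase, and Cdc6, which loads the Mcm ring, were both slightly below 0, at -0.18 and -0.12. Ccne1, cyclin E1, which acts before S phase, was at 0.28 (limma adjusted p 0.2755). Tyms was not measured apart from its pseudogene Tyms-ps, which shares its probe sets.

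**Figure D2:**
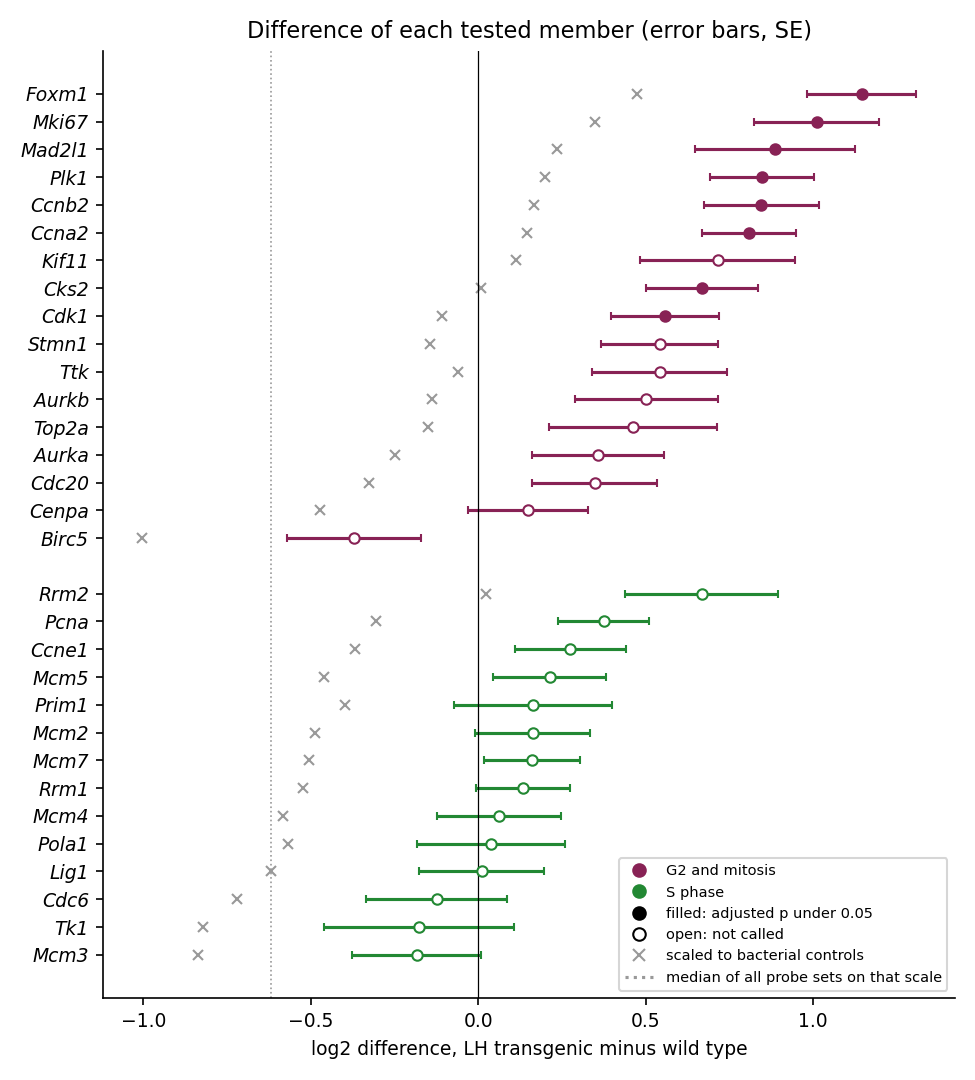
Log2 difference, LH transgenic minus wild type, of each tested member (filled circles, called; open circles, not called; bars, SE), with the same difference on the bacterial control scale as grey crosses and the median of all probe sets on that scale (-0.62) as a dotted line. All 8 called genes are in the G2 and mitosis block, from Cdk1 at 0.56 to Foxm1 at 1.15, and on the control scale Cdk1 falls to -0.11 while Foxm1 stays at 0.47.

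The 2 sets were next compared within each array, where scaling has little effect: the G2 and mitosis median minus the S phase median was 0.41 on the deposited and 0.45 on the bacterial control scale. With the wild type mean of each gene set to 0, the mean of the 17 G2 and mitosis genes was 0.24, -0.16 and -0.08 in wild type pools 1 to 3 and 0.59, 0.53 and 0.64 in LH transgenic pools 1 to 3. The mean of the 14 S phase genes was 0.25, -0.22 and -0.03, against 0.17, 0.01 and 0.20. Within each wild type array the 2 means were within 0.06 of each other, at -0.01, 0.06 and -0.05, while within the transgenic arrays the G2 and mitosis mean was higher by 0.42, 0.53 and 0.44. The difference between the sets averages 0 in wild type arrays because of this centring, with an SD of 0.05. In transgenic arrays it averaged 0.46 ± 0.06 (SD, n = 3). The S phase mean of the transgenic arrays lay inside the range of the wild type arrays. These means describe the sets, and no p-value is given for them since the genes were chosen with results of these data known.

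**Figure D3:**
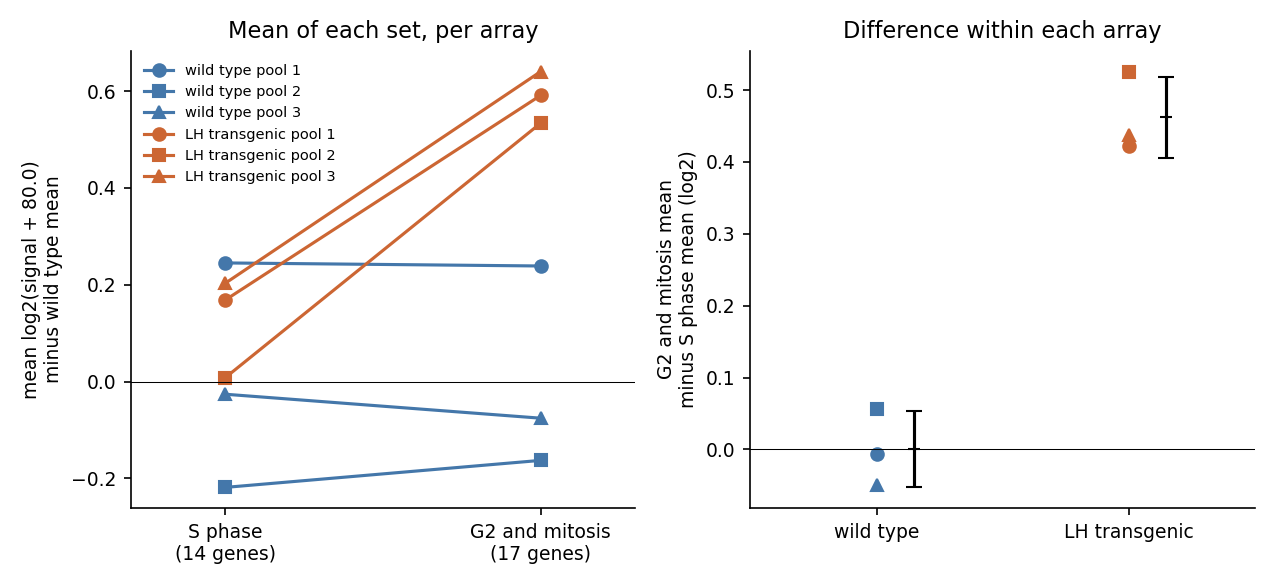
Left, mean log2(signal + 80.0) of the 14 S phase and the 17 G2 and mitosis genes on each array, relative to the wild type mean, with lines joining the values of an array. Right, the G2 and mitosis mean minus the S phase mean per array, with the group mean ± SD in black. The wild type lines are nearly flat and the transgenic lines climb by 0.42 to 0.53.

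The members moved together from pool to pool within a group. Wild type pool 1 was the highest wild type pool in 23 of the 31 tested members (74.2%; 33.3% of all tested genes), and wild type pool 2 the lowest in 22 (71%; 34.4% of all tested genes). Among transgenic pools, pool 2 was the lowest in 19 members (61.3%; 35.8% of all tested genes) and pool 3 the highest in 17 (54.8%; 39.5% of all tested genes). Leaving out wild type pool 1 raised the count of called members from 8 to 11, and leaving out LH transgenic pool 1 or either of the other wild type pools lowered it to 5. Over all 7453 probe sets the calls went from 1586 to 1056 without wild type pool 1. They went to 1137 without LH transgenic pool 1, and to 1212 and 941 without wild type pools 2 and 3. Ccna2, Ccnb2, Foxm1, Mki67 and Plk1 were called in each of these fits.

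Of the other genes of the division cycle, in 8 lists by role, 108 of 173 were tested. Of these, 9 were higher (8.33%, against 9.93% of all tested genes), 4 were lower (3.7%, against 11.6%) and 95 were not called, with a median of 0.14. The share called was thus no larger than over all genes. On the bacterial control scale the counts were 1 higher and 43 lower of the 108, against 140 higher and 3859 lower of all 7453 probe sets. By median, G2 to M control and spindle and cytokinesis stood highest, nucleotide synthesis was next at 0.27, and the kinetochore and cohesin lists were lower than that. In the spindle and cytokinesis list 4 of 14 were higher and 0 lower, with a median of 0.44. Kif20a, a kinesin of the central spindle, read 925.8, 808.6 and 864.3 against 1758.7, 2004.9 and 2376.8, a difference of 1.16 (limma adjusted p 0.001236), while its second probe set gave 0.44 (limma adjusted p 0.2577). Ect2, which positions the cleavage furrow, differed by 0.99 and Nusap1, which bundles spindle microtubules, by 0.87, with limma adjusted p of 0.01289 and 0.03339. In the G2 to M control list 1 of 13 was higher, with a median of 0.45. It was Nek2, a kinase that separates the centrosomes, at 653.1 to 866.4 in wild type and 1275.5 to 1522.1 in transgenic pools (difference 0.83, limma adjusted p 0.006116). On the bacterial control scale the medians of these lists were -0.19 and -0.20, and relative to all tested probe sets there they stood at 0.43 and 0.42.

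In the cohesin, condensin and anaphase-promoting complex list 2 of 18 were higher and 1 lower, with a median of 0.04. Smc2, a condensin subunit, differed by 0.80 and Pttg1, securin, which guards the cohesin-cleaving protease, by 0.76 (limma adjusted p 0.03845 and 0.01321). Cdc23, a subunit of the anaphase-promoting complex, differed by -0.55 (limma adjusted p 0.04414). The kinetochore and checkpoint list had 0 of 7 called by limma, with 0 at an unadjusted p under 0.05 and a median of 0.22. At that cut 17.2% of all tested genes were higher.

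On the replication side the origin licensing and firing list also had 0 of 9 called by limma, with a median of -0.14. At an unadjusted p under 0.05 it had 0, where 17.2% of all tested genes were higher. In the polymerase and fork list 1 of 24 was higher, Fen1, the flap nuclease of the lagging strand, at 660.0 to 934.3 against 1066.6 to 1239.6 (difference 0.55, limma adjusted p 0.04189; -0.08 on the bacterial control scale). The median of that list was 0.11. In nucleotide synthesis 1 of 8 was higher, Nme1, a nucleoside diphosphate kinase, with 1.27 from its brightest probe set (limma adjusted p 0.01189) and 0.39 from the other (limma adjusted p 0.1149).

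The G1 to S control list was the only one of the 8 with called genes that were all lower, 3 of 15. That is 20%, against 11.6% of all tested genes called lower, and rests on few genes. The median of the list was -0.17. Cdkn2c, p18, an inhibitor of Cdk4 and Cdk6, read 6631.4, 7051.8 and 6214.9 in wild type and 3403.5, 2461.8 and 2386.4 in transgenic pools, a difference of -1.26 (limma adjusted p 0.0008906). Cdkn1c, p57, another inhibitor of the cyclin-dependent kinases, read 2925.1, 3050.7 and 4228.6 against 2043.4, 1042.0 and 1529.5, a difference of -1.13 (limma adjusted p 0.009046). Ccnd2, cyclin D2, an activator, read 527.1, 876.8 and 1129.7 against 324.1, 320.5 and 275.6, a difference of -1.20 (limma adjusted p 0.009913). The wild type pools of Ccnd2 were spread widely and the transgenic pools were close together. On the bacterial control scale the medians of all 8 lists were below 0, from -0.78 in origin licensing to -0.19 in spindle and cytokinesis, and Nme1 was the one gene of the 9 still called higher (0.62, adjusted p 0.0375).

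**Figure D4:**
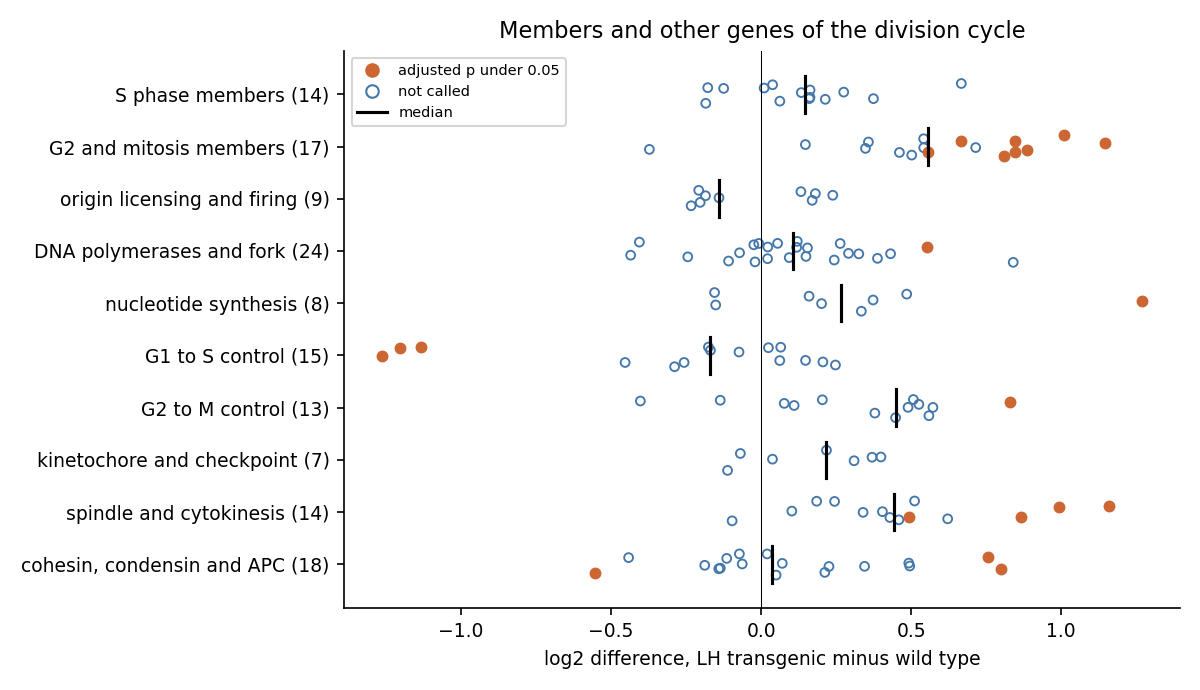
Log2 difference of each tested gene in the 2 sets of members and the 8 other lists of the division cycle (number tested in parentheses), with called genes filled and the median as a bar. The medians of the G2 and mitosis members (0.56), G2 to M control (0.45) and spindle and cytokinesis (0.44) lie farthest right on the deposited scale, all 3 being below 0 on the bacterial control scale, and the 3 filled points at the far left belong to G1 to S control.

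Signals of cell type markers also differed between the groups. The counts below are to be set beside all tested genes, of which 9.93% were called higher and 11.6% lower. At an unadjusted limma p under 0.05, 17.2% were higher. The luminal markers called lower (13.3%) and the basal markers called higher (14.3%) were near these shares, and the B and T cell lists are too short to compare. The summed signal of the luminal epithelium markers was 85264 to 94269 in wild type and 119438 to 136534 in transgenic pools, with 5 of 15 tested markers higher and 2 lower. The luminal markers did not move as one: the means went from 481.4 to 1491 in Ehf and from 1134 to 298.7 in Prom1, Krt18 differed by 0.04, and Elf5, from 14550 to 32410, made up much of the rise in the sum. Of the basal markers 1 of 7 was higher. Macrophage markers summed to 34661 to 55019 in wild type and 65151 to 78321 in transgenic pools, with 4 of 10 higher. Adipocyte markers went down, with 9 of 10 lower and sums of 154785 to 176174 against 75603 to 82438, as did 8 of 10 endothelial, 5 of 9 fibroblast and 5 of 13 skeletal muscle markers. On the bacterial control scale the luminal and macrophage medians turned from 0.29 and 0.51 to -0.36 and -0.17, while the adipocyte, endothelial, fibroblast and muscle medians stayed below 0. Muscle sums varied most between transgenic pools, from 25492 to 101931. Of the B and plasma cell markers 1 of 5 was higher and of the T cell markers 0 of 4 were called by limma, with 0 at an unadjusted p under 0.05, and 7 more T cell markers were below the filter. No marker was at 0 on any array, and the part of these shifts in the result was not tested apart from the covariate fits. With the luminal level per array as a covariate 0 members were called and only 83 of 7453 probe sets, and 17 of the 31 members stayed above 0. In that fit the 8 genes ran from 0.10 for Cdk1 (SE 0.31), 0.16 for Cks2 (SE 0.32) and 0.41 for Ccnb2 (SE 0.34) to 0.76 for Ccna2 (SE 0.32) and 0.78 for Foxm1 (SE 0.33). With the muscle level as a covariate 4 members and 785 of 7453 probe sets were called. With the B and T cell level 5 members and 1265 probe sets were called, against 8 and 1586 without a covariate.

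Trimmed means of the deposited signals were nearly identical between arrays, at 1500.8 to 1500.9. Values this close point to scaling before deposit, so they cannot show whether the arrays were alike. The median of the deposited signals was 540.6 to 583.5. On these already scaled signals the bacterial control RNA added at hybridisation read higher on the transgenic arrays. Its geometric mean over 9 probe sets was 3359 to 4433 in wild type and 5219 to 7147 in transgenic. The 3' to 5' signal ratio of Actb, a measure of RNA integrity, was 2.02 to 2.23 in wild type and 1.27 to 2.09 in transgenic arrays, and that of Gapdh was 1.15 to 1.37 and 1.05 to 1.41. The part of these differences in the result was not tested beyond the rescaling given above.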

How the data were processed

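RNA of 6 pools was hybridised to Affymetrix mouse arrays, as biotin-labelled cRNA primed with oligo-dT per the labels' protocols. The authors deposited 1 linear intensity per probe set and array, with MAS5 named in the submitters' processing notes; no version of it, and no detection call, was found in the labels or file headers. The number of arrays limits the precision. Of 12488 probe sets, 66 were controls, 10833 had 1 gene in the array annotation, 396 several and 1193 none. Groups came from the source names in the labels.

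From the deposited values log2(signal + 80.0) was taken, 80.0 being the 20th percentile of all values, which understates differences at low signal. Those with a mean of at least 336.0, the 40th percentile of means, were tested with limma 3.58.1 in R 4.3.3 (lmFit, eBayes with trend), two-sided, with no covariate, Benjamini-Hochberg adjustment over 7453 probe sets and a threshold of 0.05. The brightest probe set stood for a gene. On simulated data with the spread of these data, the fit recovered 26% of 1.5-fold, 70% of 2-fold and 88% of 3-fold changes. That simulation had 149 calls (9 of them false) against 1586 in the data, so the rates here can differ. A gene that was not called was thus not shown to be unchanged. Promoters were searched in Python 3.11.15.

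The members and gene lists were chosen with earlier results of these data known. Values on every array are given for members called, for members whose groups do not overlap and for the 2 of each set nearest to 0. Up to 3 called genes per pathway list and direction are named, some by range or difference alone. Cell type markers were summarised by list. Birc5, Aurka, Aurkb, Top2a, other members that were not called, Elf5 and Krt18 were added after their values were seen. The alternatives were other normalizations, pseudocounts, filters, variance models, ways to join probe sets, marker levels as a covariate, and leaving out each array.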

Additional observations from a re-analysis of the deposited data

How the results depend on the processing

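Limits: 3 pools a group, no detection calls, and a luminal level that does not overlap between groups; with it as a covariate only 83 probe sets were called, and the cause was not tested. No paired analysis was possible because the labels give no replicate numbers that groups share. Scaling to the bacterial control RNA shifted the median of all probe sets from 0.02 to -0.62, and called 140 probe sets higher and 3859 lower (3.5% higher among calls, against 49.2% on the deposited scale). It gave 0 members higher, 5 members lower (Birc5, Cdc6, Lig1, Mcm3 and Tk1; 1 of G2 and mitosis), G2 and mitosis and S phase medians of -0.060 and -0.51, and 1 other pathway gene higher and 43 lower. Of the members 9 of 31 were above 0 there, against 27. The SE on that scale was nearly the same for many genes, so its calls do not rest on each gene's own spread between pools. Among members and named genes called on either scale, signs turned in Cdk1 (-0.11), Lig1 (-0.62), Fen1 (-0.082) and the basal marker Acta2 (-0.025).

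The luminal covariate gave 0 members and 0 G2 and mitosis members called, medians of 0.30 and -0.20, a difference of the medians of 0.50, and 0 pathway genes higher and 0 lower. The muscle covariate gave 785 probe sets and 4 members called (all of G2 and mitosis), against 1586 probe sets without a covariate. It gave a G2 and mitosis median of 0.74, a difference of the medians of 0.64, and 5 pathway genes higher and 1 lower. The B and T cell covariate gave 1265 probe sets and 5 members, all of G2 and mitosis. The stricter filter left 21 members tested, and over these the G2 and mitosis median was 0.81 and the difference 0.65. The log2 difference of each remaining gene was unchanged, and only the genes counted differed. The arrayWeights fit gave a difference of 0.52 and 9 pathway genes lower. The difference of the medians was 0.41 on the deposited scale.

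Leaving out each pool in turn gave 941 to 1641 of 7453 probe sets called, against 1586 with all arrays. These fits called 5 to 11 members, with 5 to 10 of G2 and mitosis and 0 to 1 of S phase (Rrm2, without wild type pool 1). They called 3 to 12 pathway genes higher and 3 to 7 lower. In the same fits the difference of medians was 0.44 to 0.64 and the G2 and mitosis median 0.54 to 0.72. In the whole 300 bases of each promoter, a window chosen after seeing the data, a CHR was found in 12 of 16 promoters of G2 and mitosis genes (75%), 11.1% of S phase ones and 19.2% of all. With no filter Cdk1 and Mad2l1 were not called.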
